A study of Mus musculus with 2 samples.

Results

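Splicing factor and hnRNP genes were taken from the arrays by name, as gene spots whose gene name began with Hnrp, Hnrnp, Sfrs, Srsf, Snrp, Sf3a, Sf3b, U2af or Prpf. The rule found 155 of the 41174 gene probes on each array, and these belonged to 75 of 27967 gene names. RNA of K14-caSmad1 primary epidermal keratinocytes (Cy5) was hybridised together with RNA of wild-type primary epidermal keratinocytes (Cy3) on 2 two-colour arrays. Both kinds of mice were FVB/NJ animals at day 20 after birth. K14-caSmad1 animals carry a transgene for a constitutively active form of Smad1, a transcription factor of bone morphogenetic protein signalling, and the labels name K14, keratin 14, which is known as a gene of basal keratinocytes. The labels describe the cells as primary epidermal keratinocytes and not as a sorted layer.

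Pre-mRNA splicing is carried out by the spliceosome, which is assembled from small nuclear ribonucleoproteins (snRNPs). Each is an RNA bound by a ring of Sm or Sm-like (LSm) proteins and by proteins of its own. SR proteins bind exons and recruit the spliceosome, and heterogeneous nuclear ribonucleoproteins (hnRNPs) coat the nascent transcript and often oppose SR proteins at weak splice sites. SF3 proteins and U2AF recognise the branch site and the 3′ splice site, and PRPF proteins build and remodel the spliceosome.

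Log2 ratios below are K14-caSmad1 over wild type, from background-corrected intensities normalized by loess within each array. The arrays differed by no more than spots within an array for probes spotted once, with an SD of 0.0946 over 12287 probes against 0.107 predicted from 94 repeated probes, and were counted as 1 sample, although the labels call them biological replicates without giving a number of animals. For the repeated probes themselves the means differed by 0.0519 against 0.0347 predicted. The limma counts given below therefore measure only how well the arrays repeat each other. Wild type was in Cy3 on both arrays, so dye and genotype cannot be told apart.

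The arrays held 43379 gene spots, and between 14412 and 15800 gene spots in K14-caSmad1 and between 15570 and 16144 in wild type were well above background. Markers of the cell types in an epidermal preparation also differed. The 7 tested of 8 keratinocyte markers were higher in K14-caSmad1, from 0.02 for Krt10 to 1.80 for Krt1, with summed signals of 449677 and 531871 in K14-caSmad1 against 255640 and 272509 in wild type. The 6 tested of 7 hair shaft markers were lower, from -5.27 to -1.48, with sums of 43518 and 45745 in K14-caSmad1 against 872697 and 1051950 in wild type. All tested melanocyte (5 of 7), endothelial (2 of 6), fibroblast (4 of 6) and erythroid (3 of 4) markers were lower as well, and their sums were 2880 to 3054, 766 to 774, 1244 to 1369 and 2088 to 2138 in K14-caSmad1. In wild type those sums were 6230 to 6538, 1430 to 1489, 3625 to 3874 and 6497 to 7093. A marker was tested if well above background on both arrays in at least 1 channel. Faint markers could therefore enter through wild type alone, and such markers could hardly be found higher in K14-caSmad1. Several K14-caSmad1 signals were low, such as 218 and 245 for Col3a1 and 289 and 300 for Tyrp1. How far the filter made all of them lower was not tested. Of 6 Langerhans and dendritic markers 4 were higher on both arrays, 1 was lower and 1 differed in sign between the arrays (sums of 41312 and 49548 in K14-caSmad1 against 35195 and 44644 in wild type), and of 4 tested T cell markers 3 were higher on both arrays and 1 differed in sign (26603 and 26369 in K14-caSmad1 against 19470 and 19811 in wild type). Fewer cells of a type and less RNA per cell cannot be told apart in these RNA samples, and the part of these markers in the results below was not tested.

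Of the 155 probes, 106 were tested, that is, well above background on both arrays in at least 1 channel, and they represented 71 genes. For 102 of them both channels were well above background, and for 4 only 1 was. The 49 other probes and 4 genes (Sf3b1, U2af2, Hnrnpul2 and Snrpn) gave no tested value. Each gene was represented by its brightest tested probe.

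Splicing factor genes were higher in K14-caSmad1 more often than lower. On both arrays 25 of 71 genes (35.2%) were at least 1.5-fold higher, against 13.2% of the 11760 tested genes, and 4 (5.63%) were at least 1.5-fold lower, against 19.5%. At a 2-fold limit 10 were higher, where 4.09% of all genes were, and 1 was lower, where 9.8% were. By limma at an adjusted p of 0.05, 46 were higher and 19 lower, against 40.7% and 46.2% of all genes. The median log2 ratio was 0.37 over the 71 genes and -0.03 over all tested genes. The classes differed: the median was 0.99 for 19 hnRNP genes, 0.50 for 11 snRNP genes, 0.17 for 19 SR protein genes and 0.05 for the 22 SF3, U2AF and PRPF genes. The SR class holds every gene with an Sfrs name on the array. Its 9 genes with a Srsf symbol today had a median of 0.37, and its 10 genes with another symbol 0.08. Differences between the classes were not tested, because the genes were chosen with earlier results of these arrays known. When all tested probes of a gene were averaged, 4 of the 71 genes were at least 2-fold higher, where 3.33% of all genes were. The hnRNP median was then 0.68.

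**Figure D1:**
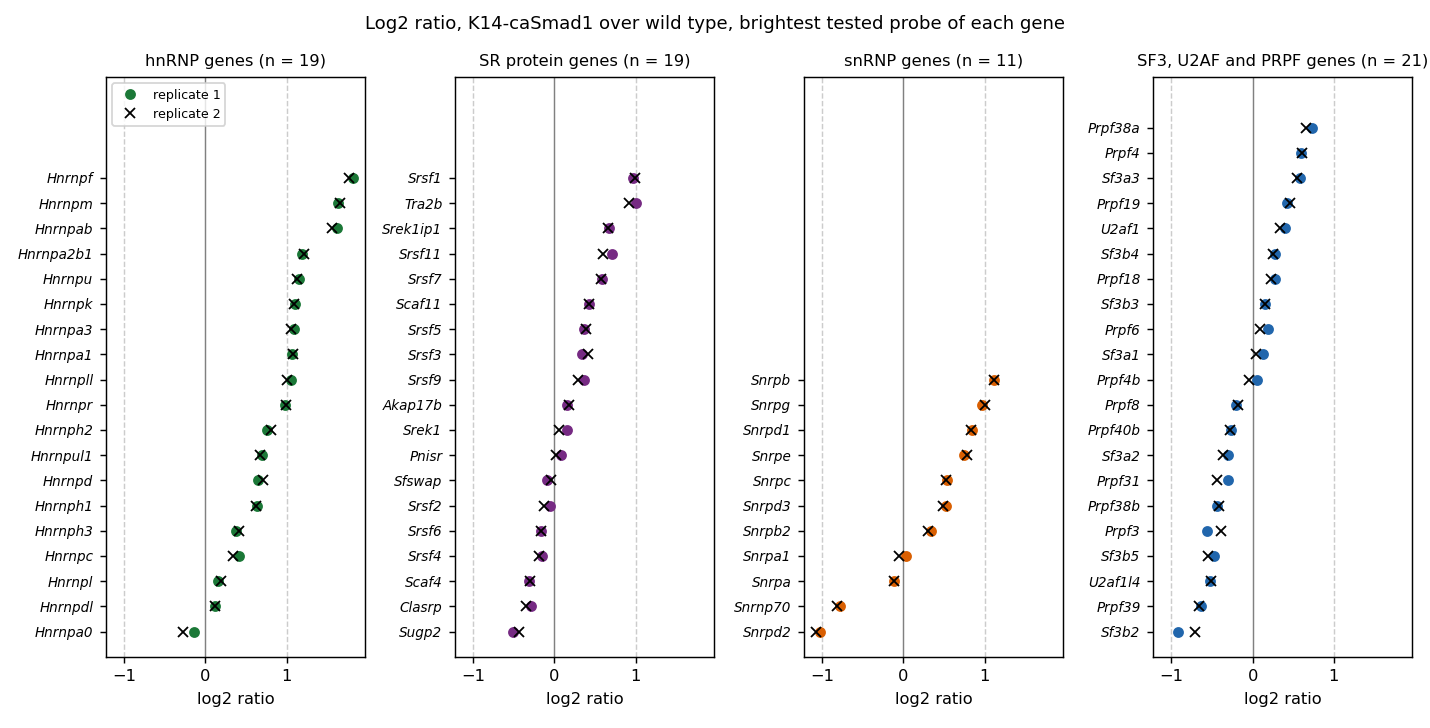
Log2 ratio of K14-caSmad1 over wild type (horizontal axis) for 70 tested genes in 4 classes, with replicate 1 as a filled point and replicate 2 as a cross. Of the hnRNP genes 18 of 19 lie above 0, and dashed lines mark 2-fold differences.

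**Figure D2:**
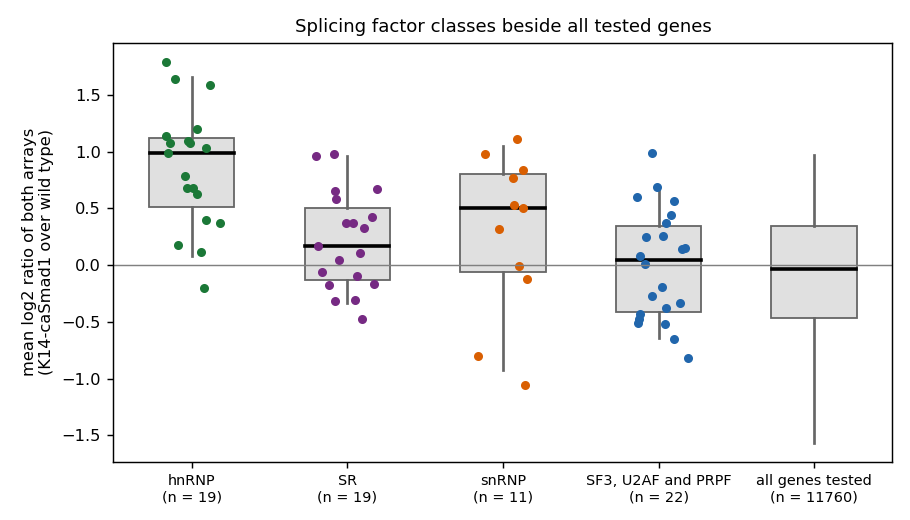
Mean log2 ratio of both arrays by class beside all 11760 tested genes. Boxes run from the 25th to the 75th percentile, with the median as a thick line and thin lines to the 5th and 95th percentiles, and each point is 1 gene. The hnRNP median is 0.99 and the median of all genes -0.03.

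The hnRNP genes stood highest. Of 19 tested, 14 (73.7%) were at least 1.5-fold higher in K14-caSmad1 and 0 were at least 1.5-fold lower, and 9 were at least 2-fold higher. Both K14-caSmad1 signals lay above both wild-type signals in 16 of the 19 genes and below both in 1, where 37.2% of all tested genes lay above and 42.3% below. Separate signals were thus common on these arrays, and the remarks on overlap below only describe each gene. Hnrnpf, which binds G-rich runs in RNA, had signals of 56815 and 55163 in K14-caSmad1 against 16075 and 16230 in wild type. Its log2 ratio was 1.82 on replicate 1 and 1.77 on replicate 2, a 3.47-fold mean difference, and both K14-caSmad1 signals lay far above both wild-type signals. Hnrnpm, a regulator of alternative splicing, had 22402 and 28831 in K14-caSmad1 against 7226 and 9148 in wild type, 3.13-fold higher. Hnrnpab, an RNA- and DNA-binding member of the CArG-box-binding family, had 85503 and 76628 in K14-caSmad1 against 27772 and 25936 in wild type, 3.02-fold higher. The groups did not overlap for either gene.

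Hnrnpa1, Hnrnpa2b1, Hnrnpa3, Hnrnpu, Hnrnpk and Hnrnpll were also at least 2-fold higher. Hnrnpa2b1, known as a reader of RNA sorting signals, had 9243 and 11547 in K14-caSmad1 against 4037 and 4981 in wild type, with log2 ratios of 1.19 and 1.21. Hnrnpu, a nuclear scaffold-attachment protein, had 22853 and 23745 in K14-caSmad1 against 10262 and 10867 in wild type (log2 ratio 1.14). Its second tested probe gave less, with log2 ratios of 0.60 on replicate 1 and 0.56 on replicate 2, the latter short of 1.5-fold. Hnrnpk, a KH-domain protein that binds C-rich RNA, had 52874 and 52726 in K14-caSmad1 against 24515 and 24824 in wild type (1.10). In each of these the K14-caSmad1 signals lay above the wild-type signals without overlap. Hnrnpa3 had 67579 and 70207 in K14-caSmad1 against 31629 and 33746 in wild type (1.08). Hnrnpa1, the best known splicing repressor of the family, had 13127 and 13547 in K14-caSmad1 against 6259 and 6420 in wild type (1.07), and Hnrnpll, a regulator of lymphocyte splicing, had 2407 and 2157 in K14-caSmad1 against 1154 and 1072 in wild type (1.03). The signals did not overlap in these 3 genes either.

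**Figure D3:**
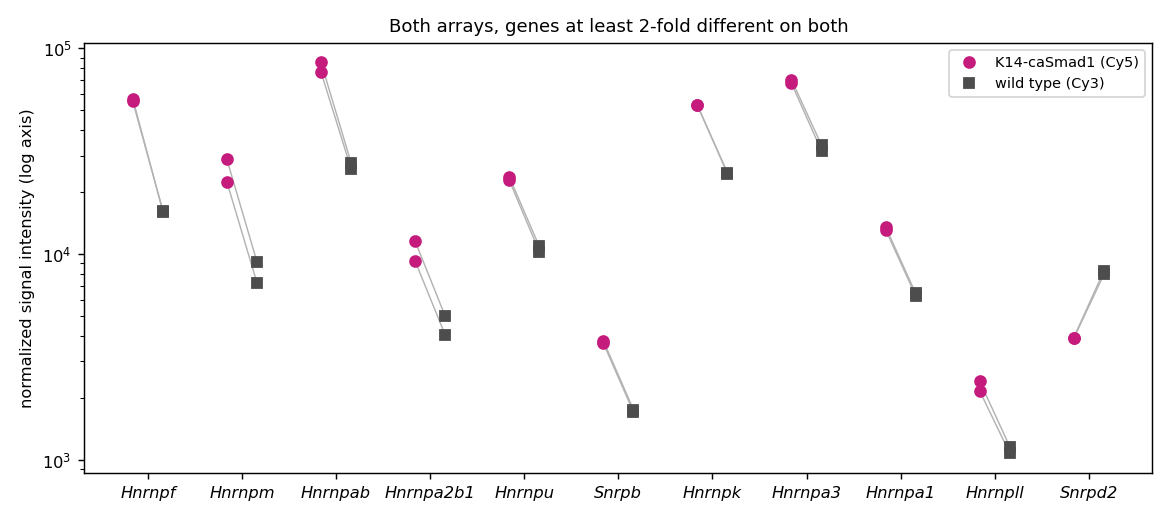
Normalized signal intensity (log axis) on both arrays for the 11 genes at least 2-fold different on both, K14-caSmad1 as circles left of wild type as squares, with a line joining the channels of 1 array. The 10 genes on the left are higher in K14-caSmad1 and Snrpd2 alone is lower.

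The other 10 hnRNP genes did not reach 2-fold on both arrays. Hnrnpr was at 0.99, Hnrnph2 at 0.78, Hnrnpul1 and Hnrnpd at 0.68 and Hnrnph1 at 0.63, all at least 1.5-fold higher. Hnrnph3 (0.40) and Hnrnpc (0.38), whose protein coats nascent transcripts at uridine runs, were below that limit, as were Hnrnpl (0.18) and Hnrnpdl (0.12). Hnrnpa0 was the only tested hnRNP gene below 0, with 591 and 520 in K14-caSmad1 against 649 and 629 in wild type. Its log2 ratios were -0.14 and -0.27, and its probe has the highest GC content among the tested hnRNP probes, 45 of 60 bases.

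Genes of the SR class, taken by their Sfrs name on the array, were nearer to the all-gene median. Of 19 tested, 4 (21.1%) were at least 1.5-fold higher, where 13.2% of all genes were, and 0 at least 1.5-fold lower, where 19.5% were. Srsf1, the founding SR protein, had 4095 and 5353 in K14-caSmad1 against 2093 and 2698 in wild type, with log2 ratios of 0.97 and 0.99. Tra2b, a sequence-specific activator of exon inclusion, had 3861 and 4321 in K14-caSmad1 against 1919 and 2286 in wild type, with 1.01 and 0.92. Srek1ip1, which binds an SR-like protein, had 1144 and 1118 in K14-caSmad1 against 719 and 704 in wild type (0.67). Srsf11 had 12113 and 11947 in K14-caSmad1 against 7389 and 7871 in wild type (0.66), and its second tested probe gave 0.36. In these genes the signals of the groups did not overlap.

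By their brightest probes the other SR genes ranged from 0.58 for Srsf7 to -0.47 for Sugp2, with 12 of all 19 above 0. The 3 tested probes of Srsf7 ran from 0.09 to 1.15, and the 2 of Srsf6 were at -0.16 and 0.50. Srsf3 had 854 and 889 in K14-caSmad1 against 677 and 669 in wild type (0.37), and these did not overlap. Srsf2, one of the brightest SR probes, had 30797 and 31003 in K14-caSmad1 against 31919 and 33967 in wild type (-0.09). Limma did not call that difference, and it was above 0 with median centring, without background subtraction and with the mean of its probes. The 9 genes with a Srsf symbol had a median of 0.37, and the 10 genes that carried an Sfrs name on the array and have another symbol today, such as Clasrp and Pnisr, had a median of 0.08.

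Of 11 tested snRNP genes 4 (36.4%) were at least 1.5-fold higher, where 13.2% of all genes were, and 2 (18.2%) at least 1.5-fold lower, where 19.5% were. The Sm core genes had a median of 0.80 over 6 and the particle-specific genes one of -0.01 over 5, and their ranges overlapped. Snrpb, a component of the Sm ring, had 3687 and 3787 in K14-caSmad1 against 1707 and 1752 in wild type (1.11). Snrpg, another ring component, had 36671 and 37030 in K14-caSmad1 against 18850 and 18483 in wild type (0.98). Snrpd1 (0.84), Snrpe (0.76) and Snrpd3 (0.50) were also higher. Snrpd2 went the other way: it had 3889 and 3919 in K14-caSmad1 against 7956 and 8266 in wild type, with log2 ratios of -1.03 and -1.08. Under 4 alternatives its mean lay between -0.92 and -0.76, short of 2-fold. So 5 of the 6 tested Sm core genes were above 0 and 1 was below. The products of these genes are known to assemble in 1 ring.

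Among the particle-specific genes, Snrnp70, the U1-specific protein, had 31830 and 30339 in K14-caSmad1 against 54528 and 53681 in wild type (-0.80), and its second tested probe gave -0.63. Snrpc, also U1-specific, was at 0.53, Snrpb2 at 0.32, Snrpa1 at -0.01 and Snrpa at -0.12. For Snrnp70 both probes lay on the same side and the groups did not overlap.

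The SF3, U2AF and PRPF genes had 3 of 22 (13.6%) at least 1.5-fold higher, near the 13.2% of all genes, and 2 (9.09%) at least 1.5-fold lower, against 19.5%. Prpf38a, a component of the precatalytic spliceosome, had 4132 and 3679 in K14-caSmad1 against 2497 and 2333 in wild type (0.69). Prpf4, a tri-snRNP protein, had 2585 and 2799 in K14-caSmad1 against 1716 and 1833 in wild type (0.60). The groups did not overlap for either gene. Sf3b2 had 2789 and 6539 in K14-caSmad1 against 5291 and 10698 in wild type, with log2 ratios of -0.92 and -0.71. Its signals differed widely between the arrays while both ratios were below 0. Prpf39 was at -0.65.

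The remaining factors varied less. Sf3a3 was at 0.57, Sf3b4 at 0.26 and Sf3b5 at -0.51 (0.07 after centring by GC count), and the K14-caSmad1 channel of Sf3a2 was not well above background, which gives at least 1.17-fold lower in K14-caSmad1. U2af1, which reads the AG of the 3′ splice site, had 5394 and 5249 in K14-caSmad1 against 4086 and 4142 in wild type (0.37), and U2af1l4 was at -0.52. Prpf8, the central protein of the catalytic core, was at -0.19 by its brightest probe and at 0.38 by its other one, and was above 0 with median centring, the mean of its probes and GC centring. Prpf38b (-0.43), Prpf3 (-0.48) and Prpf31 (-0.37) were lower, with none past 1.5-fold.

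Different probes of the same gene did not always give the same value. Some probes that carry such differences are shown here, beside probes of Hnrnpf and Snrpd2. The first 30 of 60 bases are given as the file holds them, 5′ to 3′, with G and C in capitals, and the coordinates are those of the whole probe on mm9.
Hnrnpa1 chr15:103075254-103075313: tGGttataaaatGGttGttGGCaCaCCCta
Hnrnpa1 chr15:103076785-103076844: CtGCtatGaGGCttaaCtGCtGtCataaaa
Hnrnpa2b1 chr6:51412792-51412852: GaCataaCGtttttCCttCCCaattttaaG
Hnrnpa2b1 chr6:51411337-51411396: GtCaaCCaCaGaGtCttCaaGaaataaGaa
Srsf2 chr11:116711994-116712053: GaGCGaCttCaGatttCattattGGattGG
Srsf2 chr11:116711200-116711226: GtCCaGtttattaaaatGCCtGaCaaCtGC
Srek1ip1 chr13:105628341-105628400: GatttaCaaatGtGCCatattGGCatGtCt
Srek1ip1 chr13:105607403-105617150: aGGaCtCCGaCGatCCCaCtCaCCttGCat
Hnrnpf chr6:117875507-117875566: aGGaattGGtGaGGCCttGaCttaaaGCtt
Snrpd2 chr7:19735208-19736590: GaGGCGGGaGtGatCtGCGaGCGaaaCCta

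In Hnrnpa1 the first probe, which lies at base 1785 of its transcript, was at 1.07. The second, designed on another transcript record, was at -0.75, with 3320 and 3253 in K14-caSmad1 against 5586 and 5486 in wild type. Both probes hold 21 G or C bases, and 2 further probes of the gene were at 0.18 and 0.06. The direction for Hnrnpa1 therefore depended on the probe. In Hnrnpa2b1 the first probe was at 1.20 and the second at -0.11, with 23 and 21 G or C bases.

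In Srsf2 the first probe was at 1.27 (17 G or C bases), with 3761 and 3836 in K14-caSmad1 against 1552 and 1594 in wild type. The brightest Srsf2 probe was at -0.09 (27 bases), and the other tested probes of the gene were at -0.07 and 0.17. In Srek1ip1 the first probe was at 0.67 (23 bases) and the second at -0.59 (33 bases). The file spreads the second Srek1ip1 probe over 9748 bases of genome and the Snrpd2 probe over 1383, wider than the 60 bases of a probe, and gives 27 bases for the brightest Srsf2 probe.

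Of the 25 member genes with several tested probes, 6 (24%) had probes more than 1 log2 unit apart, where 15.7% of 2825 genes did. The median spread was 0.30 against 0.44 over all such genes. The number of tested probes per gene, on which such spreads depend, was not matched between members and all genes. In 2 genes, Hnrnpa1 and Srek1ip1, 1 probe lay below -0.5 and another above 0.5, which is 8% against 2.51%. Hnrnpab, also 1 of the 6 genes, had all 4 probes above 0, but they reached from 0.16 to 1.59. Hnrnpa3 stayed above 0 in its 3 probes (0.57 to 1.49) and Hnrnpk in its 2 (1.10 and 1.28). The probe lying furthest downstream was higher than the one furthest upstream in 14 genes and lower in 11.

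**Figure D4:**
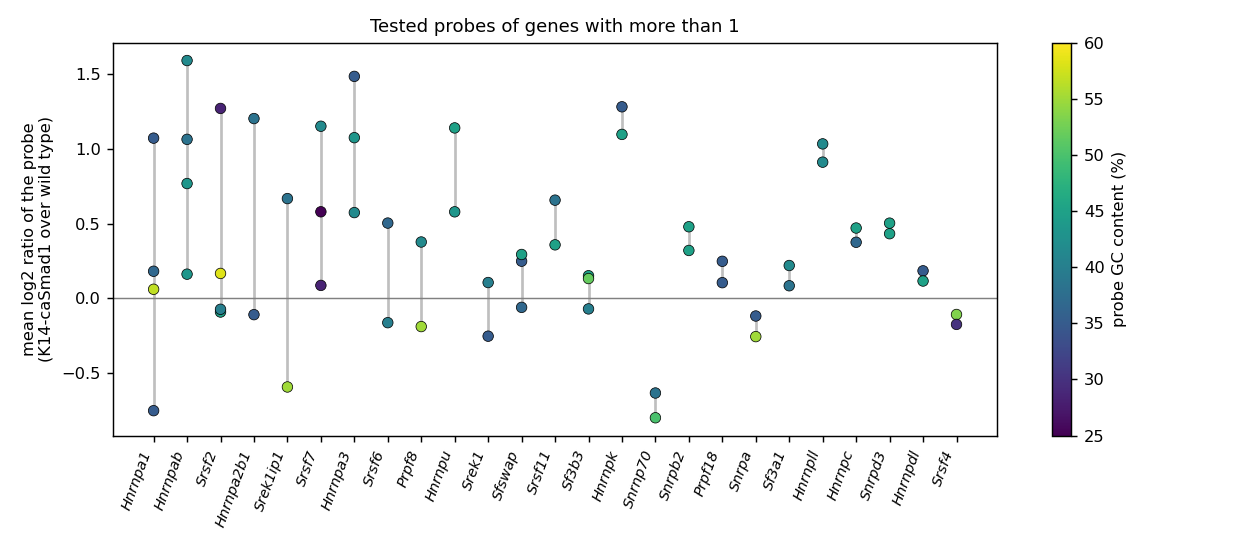
Mean log2 ratio of each tested probe (points) for the 25 genes with several, ordered by the distance between lowest and highest probe, with colour for GC content in percent. Hnrnpa1 reaches from -0.75 to 1.07 and Srek1ip1 from -0.59 to 0.67, while Snrnp70 is below 0 in both probes.

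GC content went with the ratio. Across the 106 tested member probes the Pearson correlation of GC bases and log2 ratio was -0.32 and the Spearman correlation -0.26, and across all 15127 tested probes they were -0.19 and -0.25; the probes share arrays, dyes and normalization. Member probes with 28 or more G or C bases had a median of -0.27 (20 probes), close to -0.26 for all probes of that content. With 23 to 27 such bases the medians were 0.42 for members (49 probes) and 0.04 for all, and with 22 or fewer 0.37 (37) and 0.17. In the GC-rich range the members' median was thus near that of all probes.

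Within classes the correlation was -0.25 for 33 hnRNP probes, -0.39 for 31 SR probes, -0.09 for 15 snRNP probes and -0.42 for the 27 others. The 17 hnRNP probes of 23 to 27 G or C bases were all above 0, with a median of 0.91, and of the 14 with 22 or fewer 12 were above 0, with 0.65. Only 2 hnRNP probes had 28 or more. After each array was centred by GC count, the hnRNP median was 0.87 and Hnrnpa0 was at 0.37. At that setting 12 of 19 hnRNP genes were at least 1.5-fold higher, where 11.8% of all genes were. The part of GC content in the other values was not tested.

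**Figure D5:**
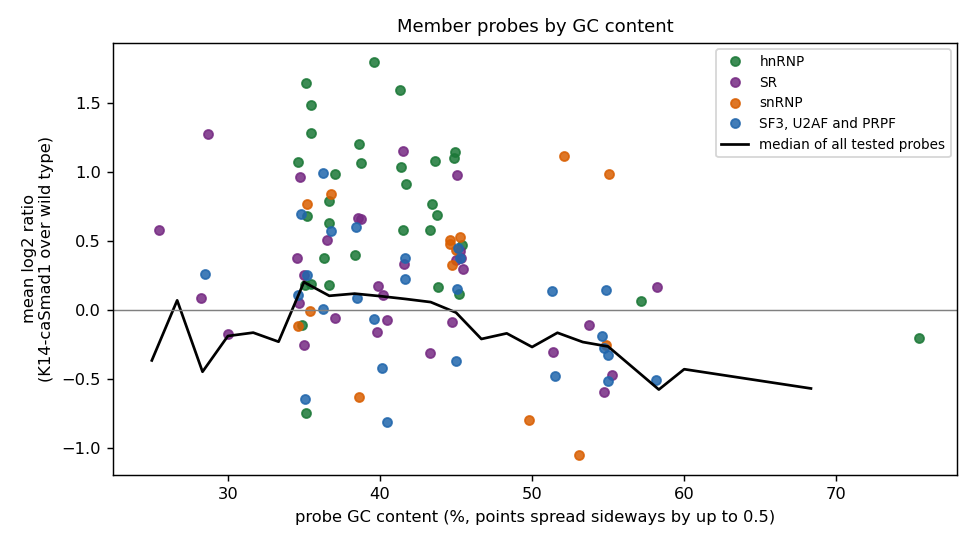
Mean log2 ratio of each tested member probe against its GC content in percent, coloured by class, with the median of all tested probes at each content as a line. The hnRNP points between about 35% and 45% lie mostly above the line, and points above 50% lie on both sides of it.

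Further splicing genes were taken from a list of 116. Tra2b and Sfswap on that list are members by the name rule and were left out here. Of 102 tested, 21 (20.6%) were at least 1.5-fold higher and 11 (10.8%) at least 1.5-fold lower, against 13.2% and 19.5% of all genes, with a median of 0.19. Shares of the single groups below rest on few genes, and several lie near those of all genes. The hnRNP-like proteins had 3 each way among 16, with a median of -0.11. Khsrp, a KH-domain protein of RNA decay, was at -2.11, Ewsr1 at -1.56 and Ptbp3 at -1.32. The 3 higher genes were Pcbp1 (1.07), Ptbp1 (0.88) and Syncrip (0.85). SR-related proteins and kinases had 2 higher and 3 lower among 11, with the SR kinase Clk3 at -2.07, Tra2a at 1.33 and Rnps1 at 1.14. The LSm and assembly group had 4 higher and 1 lower among 16, led by Lsm5 (1.38), Lsm8 (1.33) and Lsm6 (0.96).

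The exon junction complex had 1 of 7 higher and 0 lower, with Magoh at 0.88, Magohb at 0.54 and Upf3b at 0.40. Other spliceosome proteins had 4 higher and 3 lower among 34, with Nhp2l1 at 1.17, Pqbp1 at -0.97 and Xab2 at -0.95. Regulators of alternative splicing had 7 higher and 1 lower among 18, with Mbnl2 at 1.31, Qk at 1.22 and Sfpq at 1.05.

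Promoters of the members were searched for GGCGCC, a GC-rich element that Smad1 is described to bind; the letters are the same on both strands. RefSeq (GRCm38.p6) gave 89 promoters for 65 of the member genes, each 250 bases before a start. The letters were present in 20 (22.5%), against 9.59% of 32851 promoters. They were in 9 of 27 hnRNP promoters, 6 of 24 SR promoters and 2 of 14 snRNP promoters. Genes with several starts enter more than once, and their windows can overlap. The 27 hnRNP promoters belong to 18 genes. Member promoters were also richer in G and C, with a median of 59.6% against 52.4%, and 68% for hnRNP promoters. The promoters of Hnrnpk, higher in K14-caSmad1, and of Snrpd2, lower, both hold it and are shown because they lie before genes of opposite direction, with the letters in capitals.
Hnrnpk chr13:58402118-58402367, minus strand: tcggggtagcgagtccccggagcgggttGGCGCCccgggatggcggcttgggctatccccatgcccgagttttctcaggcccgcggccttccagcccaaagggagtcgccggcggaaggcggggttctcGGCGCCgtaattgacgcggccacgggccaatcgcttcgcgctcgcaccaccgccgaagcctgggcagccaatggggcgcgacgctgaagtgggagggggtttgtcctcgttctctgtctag
Snrpd2 chr7:19149588-19149837, plus strand: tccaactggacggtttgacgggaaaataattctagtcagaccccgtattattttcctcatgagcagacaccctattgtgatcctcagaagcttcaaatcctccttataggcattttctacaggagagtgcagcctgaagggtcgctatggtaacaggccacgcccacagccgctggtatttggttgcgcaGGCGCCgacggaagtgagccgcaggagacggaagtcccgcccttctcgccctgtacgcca

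The Hnrnpk window holds the element in 2 places and that of Snrpd2 in 1. The promoters of Hnrnpm, Hnrnpab, Hnrnpa2b1, Hnrnpa3 and Hnrnpa1, all at least 2-fold higher, hold 0. Also at least 2-fold higher, Hnrnpu holds it in 1 place, and of the 4 Hnrnpf promoters some hold it in 1 place and others in 0. Of the 22 promoters of hnRNP genes at least 1.5-fold higher, which belong to 13 genes, 8 (36.4%) hold the element. The median GC content of the 22 is 64.8%. A second motif, GTCTAGAC, also the same on both strands, was in 1 of the 89 member promoters (1.12%), against 0.167% of all. A match is a description of letters and says nothing on binding.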

How the data were processed

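Agilent Feature Extraction made the scanner files, per the submitters' processing notes and the file headers. They hold mean signal and local background intensity per spot, deposited without normalization, and processed intensities and flags. A table of both arrays, as deposited, has log10 ratios of the processed signals, within 0.00397 of those recomputed. Wild type was Cy3 and K14-caSmad1 Cy5, per the labels; RNA was amplified in 1 round.

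Background was corrected with limma 3.58.1 (R 4.3.3; normexp, offset 50), leaving out 36 spots on a non-uniform background on replicate 1 (0 on replicate 2), and ratios were loess-normalized within arrays (span 0.3). Control and outlier spots were left out, no gene spot was saturated (0), and spots of 1 probe were averaged. A probe was tested if well above background on both arrays in either channel (15127 probes, 11760 genes by brightest probe). Ratios were tested against 0 with lmFit and eBayes, Benjamini-Hochberg at 0.05. An "at least N-fold" value sets the bright channel against the lowest well-above-background signal or the dim probe's own, whichever is higher, after loess and Aquantile, and is open to dye bias. The 2 arrays limit the precision. The fit was tested on simulated data: at 2-fold and at 1.5-fold it called 100 of 100 probes each, and 9 of 14927 unchanged ones, while 19 of the 100 probes simulated at 1.5-fold, and 100 of those at 2-fold, passed the 1.5-fold limit on both arrays.

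Names were updated through RefSeq (GRCm38.p6), 121 member probes by accession, 18 by synonym, 15 by symbol, and 1 kept its file name. Exon or UTR positions of probes were not analysed here. The members and lists were chosen with earlier results of these data known. Named genes were those at least 2-fold different on both arrays, the 4 of largest absolute ratio per class, those with probes below -0.5 and above 0.5, and 13 preset genes; other members named complete the account of their classes and were chosen after their values were seen; 1 gene that the rule names is not reported here. Other lists give the 3 largest per class, and the hnRNP-like list also its higher genes. Alternatives covered normalization, background, filter, probe choice, GC centring, each array and an intensity trend in eBayes.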

Additional observations from a re-analysis of the deposited data

How the results depend on the processing

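Only 2 arrays of 1 dye orientation on 1 slide were available, so dye, labelling and genotype cannot be told apart, and depth here means signal over background, which left 49 of 155 probes untested. The ratio within each array already pairs the genotypes, so no further block was fitted. Genes named by rule kept their direction in all settings run except the reversals given last, and of the 19 hnRNP genes tested 18 or 19 lay above 0 in each setting (19 of 20 with no filter). Median centring in place of loess put the median of all genes at 0.22, against -0.03 with loess, and the hnRNP median 1.07 above it, against 1.02 with loess. It gave 38 member genes at least 1.5-fold higher and 1 lower, where 24.8% and 12.7% of all genes were, and 18 at least 2-fold higher and 0 lower, and turned the split of all genes at 2-fold to 1110 higher and 811 lower, against 481 and 1152 with loess. The scanner's processed signals and the deposited table each gave 7 members at least 1.5-fold lower, where 25.3% of all genes were, and 16 at least 2-fold higher; for all genes the processed signals gave 1260 higher and 1884 lower at 2-fold. The mean of a gene's probes gave 4 members at least 2-fold higher, where 3.33% of all genes were. Without background subtraction, with all spots in the normexp fit, and with GC centring, 0 were at least 2-fold lower. The cause of these moves was not tested.

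The hnRNP median of 0.99 became 1.29 with median centring, 1.09 with processed signals and with the deposited table, 0.91 without background subtraction, 0.87 with all spots in normexp and with GC centring, 0.89 with no filter and 0.68 with the mean of probes. The SR median of 0.17 became 0.42 with median centring, 0.37 with processed signals and with the deposited table, 0.12 without background subtraction, 0.11 with all spots and 0.071 with GC centring. The snRNP median of 0.50 became 0.77, 0.54, 0.54, 0.59 and 0.62 under median centring, processed signals, deposited table, no background subtraction and all spots, 0.41 with no filter and 0.47 with the mean of probes. The median of SF3, U2AF and PRPF genes, 0.05, became 0.32 with median centring, 0.15 with processed signals and with the deposited table, and ranged from -0.0012 to 0.092 when 1 array was left out. The GC correlation of -0.32 was -0.33 with median centring, -0.36 with processed signals and with the deposited table, -0.30 without background subtraction, -0.31 with all spots and in probes detected in both channels, -0.25 with no filter and -0.12 with GC centring, and it was -0.32 with either array left out. Leaving out 1 array gave 25 to 27 members at least 1.5-fold higher, 4 lower, 11 to 12 at least 2-fold higher and 1 lower. Of all genes 14.4% to 14.5% were then at least 1.5-fold higher and 20.5% to 20.6% lower. At 2-fold 4.51% to 4.66% of all genes were higher and 10.4% lower.

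Prpf8 was at 0.12 with median centring, 0.094 with the mean of probes and 0.078 with GC centring, Srsf2 at 0.14, 0.059 and 0.32 with median centring, without background subtraction and with the mean of probes, and Sf3b5 at 0.069 with GC centring. Of the other values for named genes, 354 stayed on the same side and 12 were no longer past the limma threshold, and 10 values with no test moved by more than the spread between arrays.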
